A study of Mus musculus with 2 samples.

Results

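Zinc transporters, metallothioneins and the metal response factors named for them were described in nuclear RNA of mouse macrophages. Genes were taken by symbol, as every numbered member of the Slc30a and Slc39a families together with Mt1, Mt2, Mt3, Mtf1 and Mtf2, on the condition that the gene had a protein-coding transcript. The rule gave 29 genes of the 55536 in the tables. They were 14 Slc39a genes, 10 Slc30a genes, 3 metallothionein genes and 2 metal response factor genes, and no matching symbol was lost to the protein-coding condition.

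The RNA came from bone marrow-derived macrophages of C57BL/6J mice, primary phagocytes grown out of marrow progenitors. Both libraries had the same treatment, namely 100 ng/ml lipid A for 12 h, a washout of 12 h, and 100 ng/ml lipid A again for 90 min. Lipid A is the part of lipopolysaccharide that the receptor TLR4 recognises. Total RNA of the nucleoplasmic fraction, which the labels also call nuclear, was depleted of ribosomal RNA and sequenced. There were 2 biological replicates, made from 1 µg RNA (replicate 1) and 500 ng RNA (replicate 2). They carry the same donor entry, and the labels give neither the sex nor the age of the mice and do not say whether marrow was pooled. No untreated, singly treated or cytoplasmic library was analysed here, so all values below are levels in 1 condition and the spread between its replicates, and no p-value was computed.

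Zinc crosses membranes through a pair of transporter families that work in opposite directions. ZIP proteins, encoded by Slc39a genes, move zinc into the cytosol from outside the cell or out of organelles, and ZnT proteins, encoded by Slc30a genes, move it from the cytosol into organelles or out of the cell. Metallothioneins are small cysteine-rich proteins that bind the cytosolic surplus, and the zinc-sensing factor MTF1 activates their genes and Slc30a1 through short metal response elements in the promoter. Macrophages exposed to bacterial products are known to redistribute zinc by these routes, both to withhold it from microbes and to load it into phagosomes.

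The promoters of Mt1, Mt2 and Slc30a1 are shown because these genes are the textbook targets of MTF1. Each line holds the 250 bases before the RefSeq start site on the GRCm38.p6 build, 5′ to 3′ on the strand of the gene. Capitals mark the core of the metal response element, searched as TGCACNC or TGCGCNC on both strands with overlapping matches merged.
Mt1, chr8:94178839-94179088, plus strand: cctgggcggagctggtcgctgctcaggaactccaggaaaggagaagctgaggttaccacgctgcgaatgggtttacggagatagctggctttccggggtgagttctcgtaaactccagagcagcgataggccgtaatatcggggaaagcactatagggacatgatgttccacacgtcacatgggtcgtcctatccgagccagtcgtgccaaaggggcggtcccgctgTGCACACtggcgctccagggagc
Mt2, chr8:94172368-94172617, plus strand: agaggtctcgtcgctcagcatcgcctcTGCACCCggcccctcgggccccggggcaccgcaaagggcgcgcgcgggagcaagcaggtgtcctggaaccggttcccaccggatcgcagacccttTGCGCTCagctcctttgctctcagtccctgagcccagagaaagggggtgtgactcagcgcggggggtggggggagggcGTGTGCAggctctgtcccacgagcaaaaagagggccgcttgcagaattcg
Slc30a1, chr1:191906531-191906780, plus strand: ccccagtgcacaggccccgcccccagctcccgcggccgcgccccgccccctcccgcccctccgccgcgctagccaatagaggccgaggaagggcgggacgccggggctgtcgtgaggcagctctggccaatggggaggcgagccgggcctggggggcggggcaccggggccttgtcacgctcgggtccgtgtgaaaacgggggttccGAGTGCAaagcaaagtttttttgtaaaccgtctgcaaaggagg

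In these windows Mt2 held 3 cores, and Mt1 and Slc30a1 held 1 each. Some annotated isoforms start downstream of the searched bases, namely Mt1-203 at 94179211, Mt1-202 at 94179241, Mt2-202 at 94172860 and Slc30a1-202 at 191907256. The bases directly before those starts were not searched, so cores there are not counted. The counts hold for the windows searched and need not cover the whole promoter of a gene. The Mt1 core lay 23 to 17 bases before the start, and that of Slc30a1 lay 43 to 37 bases before it on the opposite strand. The first 50 bases after the RefSeq start added 2 cores in Mt1, 1 in Mt2 and 1 in Slc30a1. RefSeq windows were used for 25 of the 29 genes, with 31 start sites. Slc30a8, Slc39a4, Slc39a6 and Slc39a14 had no window in the search. Windows on chromosome 18, where Slc39a6 lies, were left out for this set but kept among those of all genes. At least 1 core stood upstream of 14 of the 31 starts (45.2%), against 21.4% of the 32851 windows of all genes, and at least 2 stood upstream of 12.9% against 4.30%. With the first 50 bases after the RefSeq start included, 3 or more cores were found in Mt1, Mt2 and Slc30a4, or 9.68% of starts against 1.31% of all windows.

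Cores were found in genes with and without RNA. Slc39a1, Slc39a7, Slc39a9, Slc30a6, Slc30a7, Slc30a9, Slc39a10 and Mtf1, all with RNA in both libraries, had no core in these windows, whereas Slc30a2, Slc30a3 and Slc30a10, at 0 counts, had 1 or 2. A match says only that these letters are present, not that a factor binds there.

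**Figure D1:**
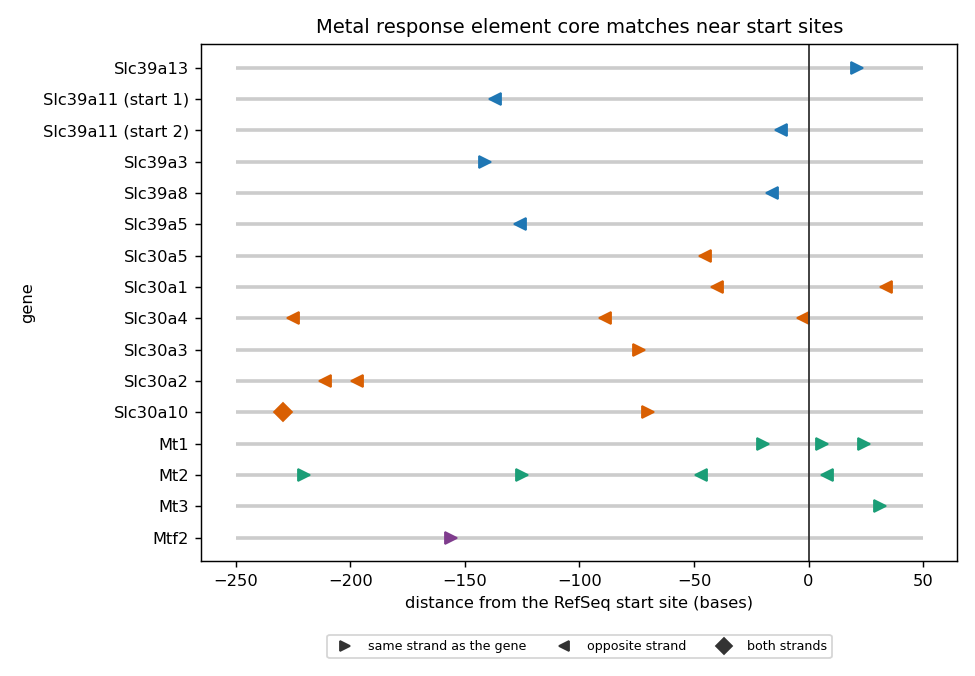
Position of metal response element cores around the RefSeq start sites of the genes that hold at least 1. The horizontal axis is the distance from the start site in bases, each grey line is 1 start site from 250 bases before to 50 after, and the symbol gives the strand; Mt2 holds 4 cores and Mt1 and Slc30a4 hold 3.

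Levels are given in TPM, a share of all transcripts that is corrected for transcript length and can be compared between genes. Of the 29 genes, 17 had at least 1 TPM in both libraries (58.6%), compared with 38.8% of the 21901 genes with a protein-coding transcript. The median of the 29 genes was 3.10 TPM, and that of the 21901 genes 0.228. The 29 genes together held 169 TPM in replicate 1 and 225 TPM in replicate 2. Importers made up 60.5% ± 0.441 of that sum, exporters 25.3% ± 0.421, the metal response factors 11.9% ± 1.37 and the metallothioneins 2.34% ± 1.35 (SD, n = 2). Protein-coding genes together with lncRNAs (long non-coding RNAs) held only 24.7% and 34.0% of all deposited TPM, and the small nuclear RNA Rn7sk alone held 331747 and 314957 TPM.

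Among the Slc39a importers, 9 of 14 reached 1 TPM in both libraries, and the family median was 3.22 TPM (2.74 in replicate 1 and 3.45 in replicate 2). The highest 3 were a plasma membrane importer and 2 transporters of internal membranes. Slc39a1, which encodes the plasma membrane importer ZIP1 (chromosome 3, 90248172 to 90253612 on mm10), had 28.2 TPM in replicate 1 and 37.2 in replicate 2 (mean 32.7 ± 6.36, SD, n = 2). Slc39a13, encoding ZIP13 of the Golgi and vesicles (chromosome 2, 91061791 to 91070417) and overlapping Psmc3 on the opposite strand, had 24.5 and 38.3 TPM (31.4 ± 9.81). Slc39a7, encoding ZIP7, which releases zinc from the endoplasmic reticulum (chromosome 17, 34028269 to 34031682), had 25.1 and 23.7 TPM (24.4 ± 0.983). Slc39a1 was above Slc39a7 in both libraries, whereas the range of Slc39a13 overlapped that of each. With protein-coding isoforms alone, Slc39a13 had 9.92 and 15.7 TPM, below Slc39a7 (15.6 and 18.8) in both libraries. All 3 stood above every other gene of the set in both libraries in these tables. In a second deposited quantification, in another format, Slc39a7 had 10.2 and 12.7 TPM (11.5 ± 1.77), below Mtf2 in both libraries (11.6 and 17.9) and below Slc30a9 in replicate 2 (17.8). Slc39a13 had 29.0 and 36.9 TPM there, above Slc39a1 (12.4 and 25.8) in both libraries.

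A second tier of 6 importers followed, from Slc39a9 down to Slc39a10. Slc39a9, whose product ZIP9 sits in the Golgi and plasma membrane, had 6.70 and 14.2 TPM (10.4 ± 5.28). Slc39a14 (chromosome 14, 70303469 to 70351425), the importer of zinc, iron and manganese known for its induction in inflammation, had 4.73 and 7.36 TPM (6.04 ± 1.86). Slc39a11 had 4.45 and 3.35 TPM (3.90 ± 0.778). The plasma membrane importer gene Slc39a3 was at 2.34 and 3.23 TPM (2.79 ± 0.629). Slc39a6 and Slc39a10 encode closely related importers that pair with each other. Their levels were 3.18 and 4.38 TPM for Slc39a6 (3.78 ± 0.849) and 1.31 and 3.55 TPM for Slc39a10 (2.43 ± 1.58), ranges that overlapped.

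The other 5 importers stayed below 1 TPM in both libraries. Slc39a8, the NF-kB-responsive importer ZIP8 of macrophages and other cells, had 87 and 65 counts, or 0.570 and 0.790 TPM, well under its relative Slc39a14. Slc39a12 (21 and 10 counts), Slc39a4 (17 and 6), which takes up dietary zinc in the gut, Slc39a2 (9 and 3) and Slc39a5 (1 and 2) lay between 0.01 and 0.18 TPM. None of the importers was at 0 in both libraries.

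Among the Slc30a exporters the split was sharper, with 5 of 10 at 1 TPM or more in both libraries, 1 below it and 4 without a count. The family median was 2.28 TPM (2.18 and 2.31). Slc30a7 encodes ZnT7 of the Golgi (chromosome 3, 115938973 to 116007406). It led the family by mean with 11.5 and 16.1 TPM (13.8 ± 3.24). Slc30a9, a transporter that removes zinc from mitochondria, followed with 9.34 and 15.3 TPM (12.3 ± 4.21), a range that overlapped that of Slc30a7. In the second quantification Slc30a9 was above Slc30a7 in replicate 2 (17.8 against 11.3 TPM) but not in replicate 1 (9.68 against 9.83). Slc30a5 and Slc30a6 encode partners of a heterodimer that loads zinc into the early secretory pathway. Slc30a6 had 8.81 and 9.37 TPM (9.09 ± 0.396) and Slc30a5 had 6.44 and 9.21 TPM (7.83 ± 1.96), with overlapping ranges when all isoforms were counted. With protein-coding isoforms alone, Slc30a5 had 3.95 and 4.32 TPM and Slc30a6 had 2.39 and 2.90, so the order turned and the ranges did not overlap.

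Slc30a1, the exporter of the plasma membrane (chromosome 1, 191906767 to 191913247), had 6.72 and 5.50 TPM (6.11 ± 0.863). It was the lowest of the 5 by mean when all isoforms were counted. With protein-coding isoforms alone its values were the same, above Slc30a5, Slc30a6 and Slc30a9 (2.73 and 2.71 TPM) in both libraries. The endosomal exporter gene Slc30a4 had 91 and 90 counts, or 0.36 and 0.69 TPM. Slc30a2, Slc30a3, Slc30a8 and Slc30a10 had 0 counts in both libraries. They are known from secretory vesicles of glands, synaptic vesicles, insulin granules and manganese export, respectively. A count of 0 allows at most 0.102 CPM for replicate 1 and 0.169 CPM for replicate 2, where CPM is the count over the library total and 3 counts are taken as the limit.

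The 3 metallothionein genes lie in a row on chromosome 8, with Mt3 at 94152607 to 94154146, Mt2 at 94172664 to 94173568 and Mt1 at 94179082 to 94180327, all on the plus strand. Their RNA was scarce in these nuclei. Mt1 had 43 and 49 counts, or 1.92 and 4.76 TPM (3.34 ± 2.01), and Mt2 had 6 and 20 counts, or 0.42 and 2.65 TPM (1.53 ± 1.58). Both were higher in replicate 2, and of the genes past 1 TPM in either library these 2 rest on the fewest counts. Mt3, the metallothionein best known from brain, had 0 counts in both libraries, with the same limit as above. Reads of the antisense gene Gm45774, which covers 749 bases of Mt2, were at most 0.04 TPM.

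The sensor gene stood above the metallothioneins when all isoforms were counted. Mtf1 (chromosome 4, 124802104 to 124849800), which encodes the zinc-sensing activator, had 6.53 and 7.61 TPM (7.07 ± 0.764), above Mt1, Mt2 and Slc30a1 in replicate 2 and above Mt1 and Mt2 in replicate 1. With protein-coding isoforms alone, Mtf1 had 3.51 and 3.01 TPM and Mt1 had 1.92 and 4.76, so the order turned in replicate 2. Slc30a1, at 6.72 and 5.50 TPM, was then above Mtf1 in both libraries. Mtf2 shares the name but is known as a Polycomb-like subunit that helps bring the repressor complex PRC2 to DNA. It had 15.2 and 16.9 TPM (16.1 ± 1.25), the highest level after the 3 leading importers in these tables.

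**Figure D2:**
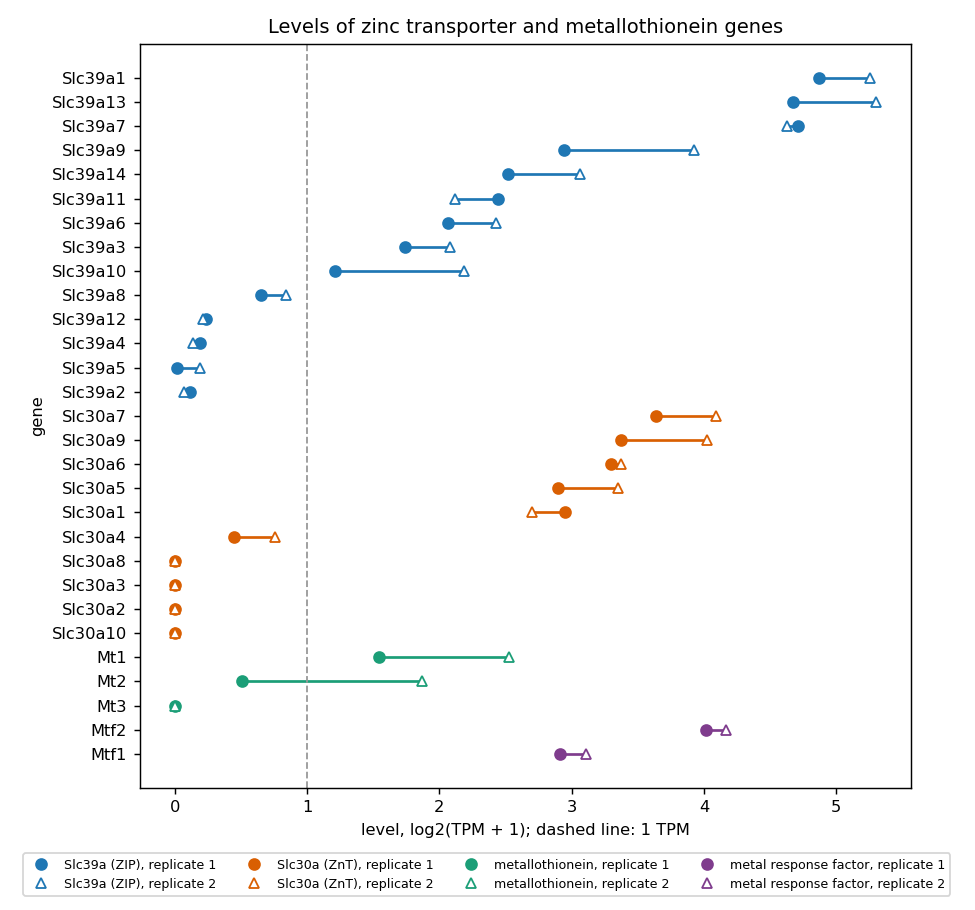
Level of each of the 29 genes in replicate 1 (filled circle) and replicate 2 (open triangle), joined by a line, on a log2(TPM + 1) axis, grouped by family. Slc39a1, Slc39a13 and Slc39a7 stand highest, Mt1 and Mt2 are spread widely between the replicates, and 5 genes are at 0 in both.

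The material carried macrophage RNA and little of other marrow cells. All 7 macrophage markers (Adgre1, Csf1r, Itgam, Cd68, Lyz2, Mertk, Fcgr1) had at least 1 TPM in both libraries, with a sum of 1487 and 2084 TPM. None of the 6 neutrophil, 3 B cell, 3 T and NK cell and 3 stromal or endothelial markers did, and no such list summed to more than 1.20 TPM. Elane, Cd3e and Nkg7 were at 0 in both libraries. Of the erythroid genes, Hba-a1 was at 0, Hbb-bs had 0.05 and 0.30 TPM, and Alas2 had 0.47 and 1.25 TPM. The nuclear RNAs Malat1, Neat1 and Rn7sk were all abundant. Gene counts summed to 29400104 in replicate 1 and 17789543 in replicate 2.

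How far each gene differed between the replicates was measured from counts scaled by edgeR's TMM method, as the log2 ratio of replicate 2 over replicate 1. With 1 library on each side, the intervals given are exact 95% intervals of counting error only. Fewer cells of a kind and less RNA per cell cannot be told apart in such bulk libraries. Of the 29 genes, 22 had the mean of 10 counts needed, and 1 of them (Mt2) went beyond 2-fold, where 13.4% of all 14831 genes did. The ratio was above 0 for 12 genes and below 0 for 10, with a median of 0.06 beside 0.01 for all genes tested.

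Mt2 had 6 and 20 counts, a log2 ratio of 2.19 (0.93 to 3.90). Mt1 had a log2 ratio of 0.74 (0.13 to 1.37). Both metallothioneins with counts were therefore higher in replicate 2, on few counts. The importer genes Slc39a10, with 329 and 409 counts, and Slc39a14, with 632 and 683, were also higher in replicate 2, by log2 ratios of 0.87 (0.66 to 1.09) and 0.67 (0.51 to 0.83).

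The lowest ratios were those of Slc39a4 and Slc30a1. Slc39a4 had a log2 ratio of -0.90 on 17 and 6 counts, with an interval that spans 0 (-2.58 to 0.46), and the sign turned in the second quantification (0.12). Slc30a1, with 1650 and 716 counts, had a log2 ratio of -0.65 (-0.78 to -0.52). The exporter gene Slc30a1 was thus lower in the library in which Mt1 and Mt2, on few counts, were higher. Whether their shared regulator has a part in this was not tested. Macrophage markers ran from -0.81 (Mertk) to 0.30 (Lyz2) between the same libraries. The counting intervals leave such spread between replicates out. Mtf1 itself had a log2 ratio of -0.16 (-0.33 to 0.003).

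On the deposited TPM scale, all genes tested shifted by a median of 0.36 towards replicate 2, and the split of the 22 genes became 17 higher and 5 lower, where 72.4% of all genes were higher. There Slc30a1 was still lower in replicate 2 (-0.29), Mtf1 turned to 0.22, and Mt1, Mt2, Slc39a9 and Slc39a10 went beyond 2-fold, as did 19.9% of all genes. Scaled by library totals, all genes shifted by 0.18, and 15 of the 22 genes were higher, beside 61.9% of all genes. The effective length that the tables assign to Slc39a9 went from 3390 bases in replicate 1 to 2707 in replicate 2. Its log2 ratio was 1.08 by TPM and 0.40 by scaled counts, and the shift of all genes is part of that gap.

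**Figure D3:**
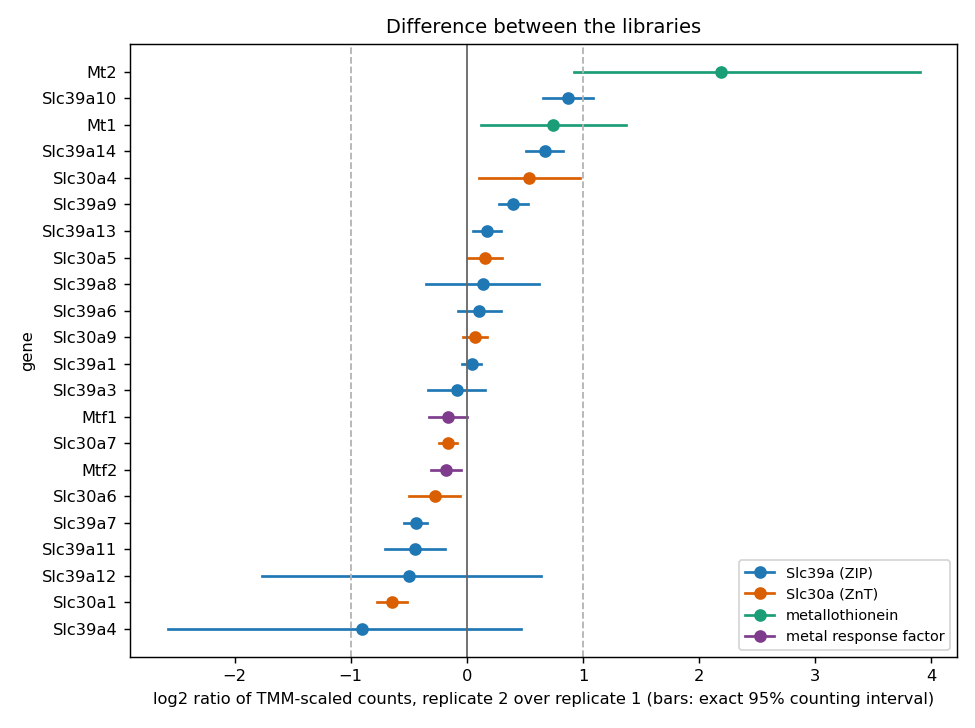
Log2 ratio of replicate 2 over replicate 1 from TMM-scaled counts for the 22 genes with a mean of at least 10 counts; bars are exact 95% counting intervals and dashed lines mark 2-fold. Mt2 alone is beyond 2-fold at 2.19, while Slc30a1 at -0.65 has an interval clear of 0.

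The transcript tables assign each gene's RNA to annotated isoforms, some of which do not encode the protein (retained introns, processed transcripts, targets of nonsense-mediated decay). Of the 17 genes at 1 TPM or more, 14 had both kinds of isoform. A median of 43.7% ± 7.76 of their TPM (SD over libraries, n = 2) lay on isoforms not annotated as protein coding, beside 35.7% ± 2.60 for all 7123 such genes. As a mean of the libraries, this percentage exceeded 50 in 6 of the 14 genes, and in 29.9% of all such genes. Those 6 included the sensor Mtf1 and the inflammation-linked importer Slc39a14.

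Slc30a9 had the highest value, with 70.8% of its TPM off protein-coding isoforms in replicate 1 and 82.3% in replicate 2 (76.5 ± 8.14). Slc30a6 followed with 72.9% and 69.1% (71.0 ± 2.72), and Mtf2 with 69.5% and 66.3% (67.9 ± 2.25). For these genes, the protein-coding isoforms alone held a mean of 2.72, 2.65 and 5.17 TPM, so that the order of the exporters depends on which isoforms are counted. Slc39a13 had 59.4% and 59.0% (59.2 ± 0.300), all on processed transcripts. Mtf1 had 46.3% and 60.4% (53.4 ± 9.98) and Slc39a14 had 56.1% and 49.3% (52.7 ± 4.81), in both genes on retained introns. At the other end, Slc39a6 had none of its TPM off protein-coding isoforms and Slc39a11 had 5.07% ± 7.17.

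The same isoform led in both libraries in each of the 17 genes. It was annotated as protein coding in 12, as a retained intron in 4 (Mtf1, Mtf2, Slc30a6, Slc30a9) and as a processed transcript in 1 (Slc39a13). The leading isoform was not protein coding in 17.5% of the 8507 genes with a protein-coding transcript at this level, and in 5 of these 17. Of those 5 isoforms, 4 lay at the 5′ end of the gene and covered a small part of it. Mtf1-204 (chromosome 4, 124802582 to 124805378, 2 exons) held 46.3% and 60.4% of the Mtf1 TPM and spanned 5.86% of the gene, starting 478 bases from its first base. The full-length Mtf1-201, with 11 exons, held 28.2% and 24.8%. These percentages are corrected for length, so a short isoform has more TPM per count. By expected counts the order was the reverse, with 82.7 and 66.8 for Mtf1-204 and 667 and 363 for Mtf1-201.

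Mtf2-216 (chromosome 5, 108065717 to 108069585) held 32.4% and 38.5% of the Mtf2 TPM, spanning 8.93% of the gene from 43 bases after its start. Slc30a9-206 (chromosome 5, 67306964 to 67309754), a single exon that begins 9 bases into the gene, held 31.4% and 30.2%. Slc39a13-206 (chromosome 2, 91069118 to 91070239, minus strand) held 37.9% and 43.4% and began 178 bases from the gene's start. The exception was Slc30a6-206 (chromosome 17, 74409826 to 74412724), an internal retained intron with 28.1% and 34.0%, which began 14218 bases into the gene. These 4 isoforms also held a minority of their gene's expected counts. Mtf2-216 had 108 and 76.6 of 1280 and 769, and Slc30a9-206 had 368.6 and 307.5 of 1794 and 1280. Slc39a13-206 had 181 and 173 of 1307 and 1003, and Slc30a6-206 had 66.4 and 45.45 of 477 and 268.

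The leading isoforms of the other genes with 5 TPM or more in both libraries were protein coding and spanned 98.2% to 100% of the gene. Slc39a1-201 and Slc30a1-201 held 100% of their gene's TPM in both libraries. Slc39a7-201 held 59.7% and 74.8%, Slc30a7-201 held 67.8% and 50.9%, Slc30a5-201 held 61.4% and 46.9%, and Slc39a9-201 held 47.0% and 34.0%. A single-exon retained intron of Slc30a7 (Slc30a7-202, 2210 bases) took 17.0% and 30.7%, and that of Slc30a5 (Slc30a5-202, 4000 bases) took 17.4% and 27.3%. Both stood higher in replicate 2, while the retained intron Slc39a7-204 stood lower there, at 33.2% and 18.1%. The direction of such shifts was thus not shared by the genes.

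**Figure D4:**
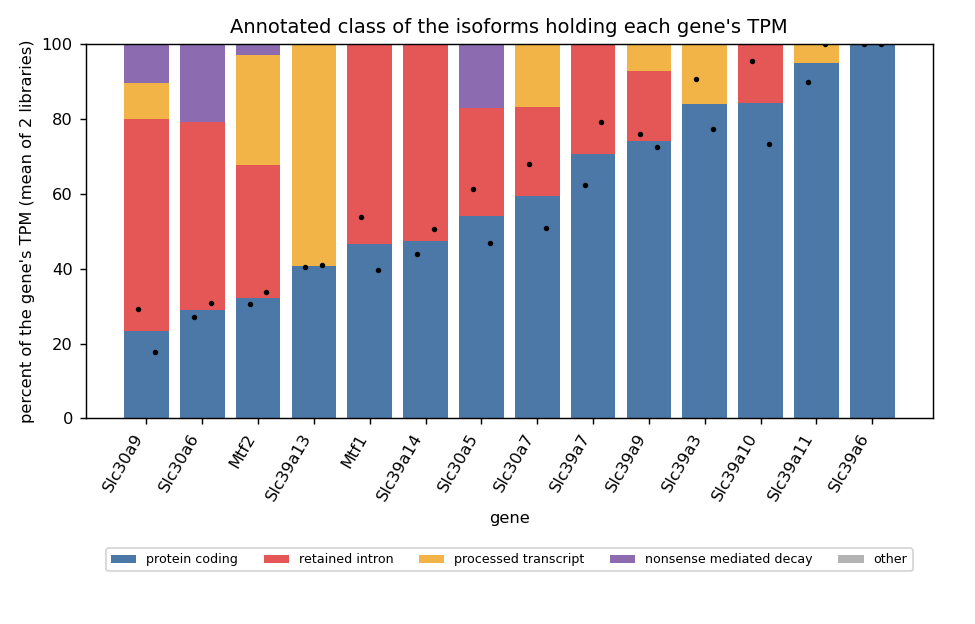
Percent of each gene's TPM on isoforms of each annotated class, as the mean of 2 libraries, for the 14 genes with both protein-coding and other isoforms; dots give the protein-coding percent in replicate 1 (left) and replicate 2 (right). Slc30a9, Slc30a6, Mtf2, Slc39a13, Mtf1 and Slc39a14 have under 50% on protein-coding isoforms.

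Some of these genes overlap others, and whether counting used strand is not given in the sources used here. Slc39a13 shares 4579 bases with Psmc3 on the opposite strand (17.2 and 13.7 TPM), Mtf2 shares 2639 bases with Tmed5 (13.9 and 18.2 TPM), and Slc39a9 shares 459 with Erh (2.64 and 4.92 TPM). All of Slc39a5 lies within Ankrd52 on the opposite strand (8.32 and 13.1 TPM). Slc39a6 shares 952 bases with Elp2 (5.43 and 8.62 TPM) and Slc39a11 shares 911 with Cog1 (6.81 and 8.34 TPM), both on the opposite strand. On the same strand, Slc39a7 shares 3312 bases with Gm20427 (1.03 and 0.86 TPM) and Slc39a2 shares 151 with Mettl17 (2.01 and 2.58 TPM). The part of these neighbours in the values above was not tested.

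In the second deposited quantification, in the format kallisto writes, coding genes and lncRNAs held 13.7% and 23.7% of TPM. It placed 16 of the 29 genes at 1 TPM or more in both libraries. Mt1 was the gene it lost, at 0.829 and 2.43 TPM. When both were rescaled to the total of coding genes and lncRNAs, the log2 ratio of the second over the first quantification had a median of 0.12 in replicate 1 and 0.06 in replicate 2 over the 17 genes, beside 0.04 and 0.14 for all genes. It exceeded 2-fold for 1 gene in each library, namely Slc39a13 in replicate 1 (1.10) and Slc39a14 in replicate 2 (1.09).

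Low genes differed more. Slc39a2 had 0.08 and 0.05 TPM in the first quantification and 0.511 and 4.11 TPM in the second, where all of it was on a retained-intron isoform. Slc39a8 had 0.57 and 0.79 TPM in the first and 0.638 and 2.19 in the second, of which a mean of 93.4% was on retained introns. Slc30a8, at 0 counts in the first, was listed at 0.109 and 0.835 TPM in the second, and Slc30a10 at 0.01 and 0.088. Slc30a2, Slc30a3 and Mt3 were at 0 in both quantifications. The same isoform led in both quantifications in 9 of the 17 genes. Mtf1-204 and Mtf2-216 led in both, whereas Slc30a6-206, Slc30a9-206 and Slc39a13-206 led in the first alone. For Slc39a10, the retained-intron percentage was 15.7 in the first and 69.3 in the second, the largest disagreement among the 14 genes.

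**Figure D5:**
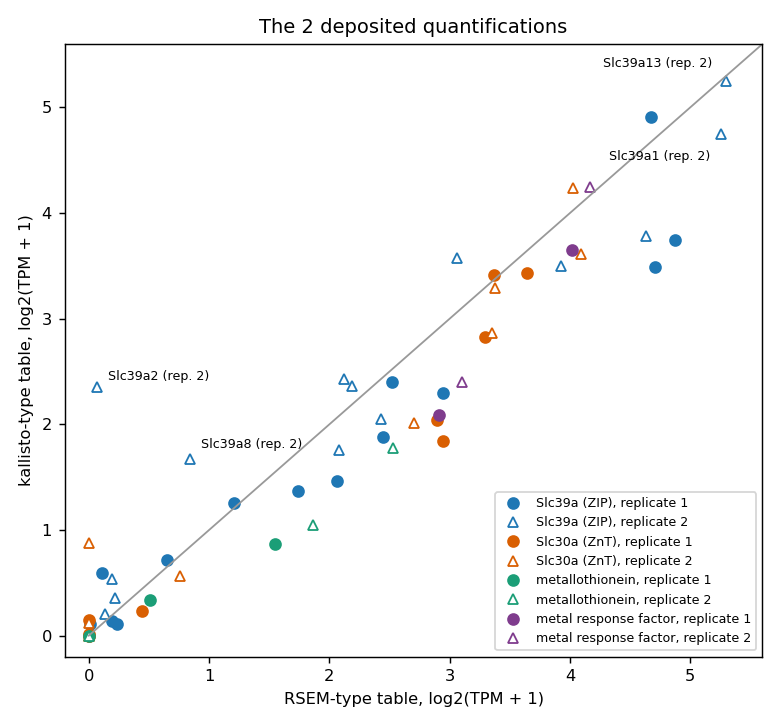
Level of each of the 29 genes in the first (horizontal) and second (vertical) deposited quantification, both as log2(TPM + 1), for replicate 1 (filled circles) and replicate 2 (open triangles); the line marks equal values. Most genes lie near or below the line, and Slc39a2 in replicate 2 lies far above it.

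Other genes of metal handling were taken from a list of 23 that covers zinc, divalent metals, copper and reported targets of MTF1. Of these, 15 had at least 1 TPM in both libraries, where 38.8% of all genes with a protein-coding transcript did. In both libraries 3 exceeded every zinc transporter. The highest 4 were Slc31a2 (91.8 ± 0.403 TPM), a copper transporter of endosomes and lysosomes, and Slc11a1 (84.8 ± 3.04), the NRAMP1 pump that removes iron and manganese from phagosomes, then Selenow (46.8 ± 10.8), a selenoprotein gene, and Cox17 (30.3 ± 5.25), a copper chaperone for cytochrome oxidase. Mt4 and the copper pump gene Atp7b had 0 counts in both libraries. The zinc-binding alarmin genes S100a8 and S100a9, which neutrophils express strongly, were at 0.265 and 0.570 TPM. Between the replicates 17 of the 23 were tested, with a median log2 ratio of -0.10, 7 higher and 10 lower. Of the 17, 1 passed 2-fold, where 13.4% of all genes tested did. It was Slc40a1, the iron exporter ferroportin and a reported MTF1 target, with 3.95 TPM in replicate 1 and 10.7 in replicate 2 (log2 ratio 1.05, 0.90 to 1.20). Of the other reported targets tested, Gclc (0.63) and Ndrg1 (0.79) were higher in replicate 2, Csrp1 was lower (-0.45, -0.59 to -0.31), and the interval of Selenow spanned 0 (0.12, -0.02 to 0.26).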

How the data were processed

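RNA of 1 group with 2 biological replicates was used. Per the file headers, the deposited tables give expected counts per gene and transcript in the format RSEM writes, TPM scaled over all features, and each transcript's percent of its gene's TPM. A second deposited set, in the format kallisto writes, gives estimated counts and TPM per transcript, summed here per gene. The assembly is mm10 with GENCODE M21 per the deposited notes. Aligner, versions and strand setting were not given in the sources used here.

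Expected counts were rounded. Rows naming no gene (0.766% and 0.272% of expected counts) were left out. Ratios used edgeR 4.0.16 TMM factors (0.944 and 1.06), a prior count of 0.5 and genes with a mean of at least 10 counts. Their calculation was checked on simulated counts with known changes and counting error alone. That simulation holds no spread between replicates and says nothing about it. Intervals are Clopper-Pearson 95% (scipy 1.17.1), and, without molecular identifiers, intervals and floors cover counting error alone. Family medians are of log2(TPM + 1). DESeq2 1.42.0 size factors were an alternative.

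Promoters are RefSeq windows matched by symbol, and protein sequences were not used here. A marker gene of the lists is not reported here. The genes and lists were chosen with earlier results of these data known. By rule, every gene of the set was named. Ratios were named for genes beyond 2-fold, the 2 highest and 2 lowest, Mt1, Mt2, Mtf1 and Slc39a14. Leading isoforms were named from 5 TPM in both libraries, as were the 5 genes with the highest percent off protein-coding isoforms, and, of other metal genes, the 4 highest and those at 0. Slc40a1, the other reported MTF1 targets, Slc39a14 isoforms, the retained introns of Slc30a7, Slc30a5 and Slc39a7, Slc39a6, Slc39a11 and the scaled ratio of Slc39a9 were singled out after their values were seen, as was the position of leading isoforms. The ratios of Mertk and Lyz2 were also singled out then.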

Additional observations from a re-analysis of the deposited data

How the results depend on the processing

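The number of genes at the detection threshold fell from 17 to 11 at 5 TPM and was 16 to 20 under the other settings. The Slc39a median of 3.22 TPM became 2.44 with the second quantification, 11.0 when TPM was rescaled to coding genes and lncRNAs, and 14.9 when mitochondrial genes were also left out, a setting chosen after seeing the data. The Slc30a median of 2.28 became 1.33, 6.74 and 8.90 under the same settings and 1.83 with a pseudocount of 0.1, and it lay between 2.18 and 2.31 in single libraries. Importers stayed above exporters by median in each of these, where the exporter median includes 4 genes at 0 counts. Among genes at 1 TPM in both libraries, mean levels of exporters ran from 6.11 (Slc30a1) to 13.8 TPM (Slc30a7). Those of importers ran from 2.43 (Slc39a10) to 32.7 TPM (Slc39a1). The middle gene by mean was Slc30a6 (9.09 TPM) for these exporters and Slc39a14 (6.04 TPM) for these importers. The order of the family medians thus turned when the genes below that level were left out, and it does not hold gene by gene. The metallothionein percentage became 3.75 when protein-coding isoforms alone were counted, became 1.38 with the second quantification, and lay between 1.39 and 3.30 in single libraries. Genes beyond 2-fold numbered 2 of 22 with library totals (Mt2 and Slc39a10, beside 14.6% of all genes), 4 of 22 with the ratio of deposited TPM (19.9%), 5 of 26 with the second quantification (Mt2, Slc30a8, Slc30a10, Slc39a2 and Slc39a5, 16.8%), 2 of 24 with no filter on counts (Mt2 and Slc39a5, 32.1%) and 0 of 18 at a mean of 50 counts (8.37%), where Mt1 and Mt2 are no longer tested. The median log2 ratio was 0.22 with library totals and 0.47 with deposited TPM. The median percent off protein-coding isoforms was 55.0 with the second quantification, beside 50.3 for all genes there, and 52.7 from 5 TPM. For the changes with the second quantification the cause was not tested. Mtf1 changed sign with library totals (0.007) and deposited TPM (0.22), while its counting interval spans 0, and Slc39a4 did with the second quantification (0.12). Under every other scaling and in the second quantification, Slc30a1 stayed lower in replicate 2, and Mt1, Mt2, Slc39a10 and Slc39a14 stayed higher. No paired analysis was possible because the labels give 1 group. Depth limits Mt1, Mt2 and the genes under 1 TPM most.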
